A study of Danio rerio with 16 samples.

Results

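Collagens are the main structural proteins of the extracellular matrix, and each is built from 3 chains wound around each other. Genes of collagen chains were taken from the whole-brain data by symbol: a gene was a member when its symbol began with col, a type number, the letter a and a chain number. Of the 38 symbols that matched, 2 (col4a3bpa and COL4A3BP (1 of 2)) belong to binding proteins of a collagen IV chain, which transfer ceramide and are not collagens, and were set aside. This left 36 chain genes of the 15304 protein coding genes measured. By the number of the collagen type, 5 were fibrillar, 11 were chains known mainly from cartilage, 7 belonged to basement membranes, 7 to beaded filaments and networks, 5 to the FACIT collagens other than type IX, and 1 to the transmembrane collagens.

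Gene expression was measured by RNA-sequencing in whole brains of female and male zebrafish aged 17 weeks. AB and SH fish (Scientific Hatcheries) came from commercial suppliers, whereas HSB and LSB are lines of wild-caught origin that were bred for high and for low stationary behavior. The labels name no transgene and no treatment for any of the 4 strains, and some HSB and LSB fish had been through behavioral tests before sampling. For each strain and sex, RNA of 10 fish was mixed into a pool and 2 pools of different fish were sequenced, which gave 16 libraries from 160 fish. Sex was read from the gonads by the authors.

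Fibrillar collagens (types I and V here) form the banded fibrils of connective tissue, with type V inside type I fibrils. Types II, IX and XI build the fibrils of cartilage, type X marks hypertrophic cartilage and, in fish, also bone-forming cells, and type XXVII is a fibril-forming collagen of cartilage. Type IV makes the sheet of the basement membrane, which in the brain surrounds blood vessels and lies under the meninges, and types XV and XVIII are proteoglycans of the same membrane. Type VI forms beaded filaments, type VIII forms networks such as that under the corneal endothelium, and FACIT collagens (types XII, XIV, XVI and XIX here) sit on the surface of fibrils and link them to other matrix.

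Values are CPM, reads of a gene per 1000000 reads on all genes of the library. From 18398865 to 35737825 reads were counted on genes per library, and no chain was at 0 in any library. Neurons were plainly present, as the 4 neuronal markers in the table (snap25b, elavl3, syt1a and stmn2a) summed to between 3243 and 3577 CPM. The libraries also held transcripts of other tissues in unequal amounts: 9 skeletal muscle markers summed to 1507 CPM in AB male pool 2 and to between 25.5 and 335 CPM in the other 15 libraries. Sex differences found in the other strains were shared only in part by LSB. Of the 109 genes that differed between the sexes in AB, SH and HSB, 74 went the same way between the LSB pools numbered 1 but 46 between those labelled LSB female pool 2 and LSB male pool 2. These genes were picked in AB, SH and HSB, so their agreement there was fixed in advance and cannot be compared with LSB. Whether a label is wrong was not settled. The paper left 1 LSB female replicate out of its network analysis as an outlier and does not say which. LSB female pool 2 also had the lowest value of all 16 libraries for 14 of the 36 chains. Where LSB is highest or lowest in a chain that differed among strains, the difference or its test is therefore given with and without the LSB pools numbered 2. Ratios of chains, and the LSB and SH pairs of col5a2b and col11a1a, are given only with these pools. Sex was tested in the 12 libraries of AB, SH and HSB. In RNA of whole brains, fewer cells of a type and less RNA per cell cannot be told apart.

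The first question was how the chains differed among the strains. Collagen expression differed by strain in chains of most classes, but the strain with the highest level was not the same from chain to chain, as the map of all chains by library shows. In the limma model on log2(CPM + 0.5), which held strain and sex, and with an adjusted p (Benjamini-Hochberg, over all genes) under 0.05, 20 of 36 chains (55.6%) differed among the strains. Among all genes 61.5% did, so the chains were not called more often than other genes. Below, the limma adjusted p beside a strain difference of a named chain is that over all 4 strains, unless given for the pair. Between the strains with the highest and lowest mean, the median chain differed by 0.42 on the log2 scale and the median gene by 0.28. Such a span also grows with the spread between libraries. For example, col10a1 (1.27, SE 0.53) and col11a2 (0.73, SE 0.48) had wide spans but were not called. SH had the highest mean for 12 of the 20 called chains and the lowest for 4, whereas LSB had the highest for 4 and the lowest for 8. The same lean was present over all 9417 called genes, of which SH was highest in 46.4% (60% of the called chains) and LSB lowest in 37.1% (40%).

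**Figure D1:**
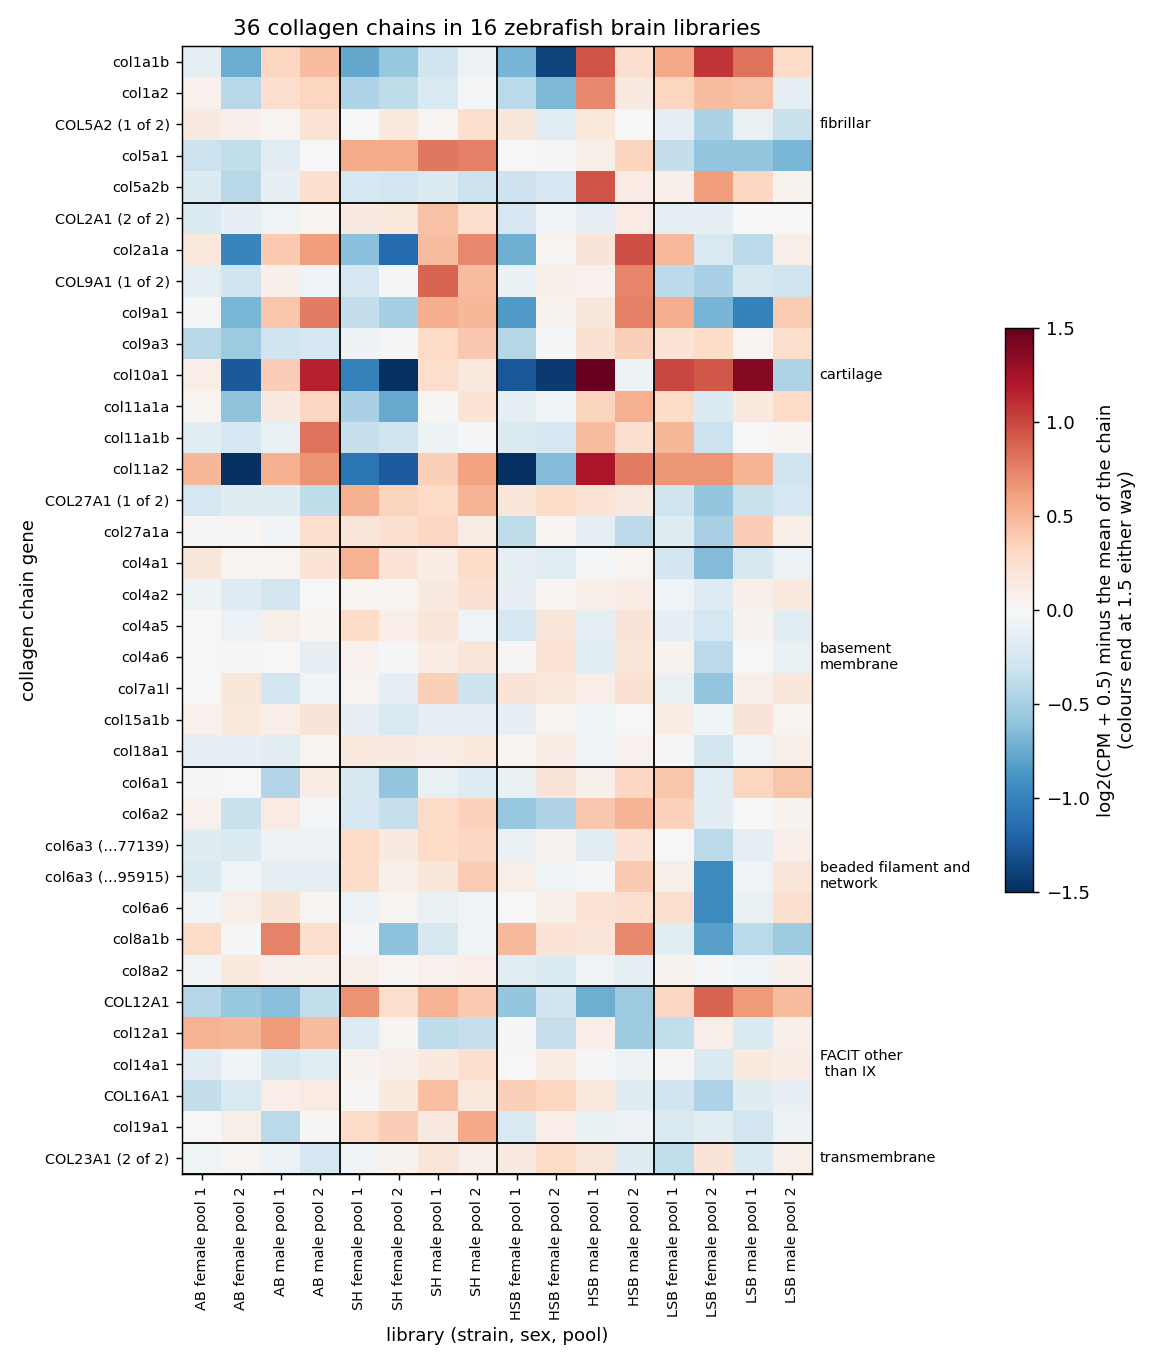
Each row is 1 of the 36 collagen chains and each column 1 of the 16 libraries, grouped by strain, with colour for log2(CPM + 0.5) minus the mean of that chain. COL12A1 is high in SH and LSB while col12a1 is high in AB, and col10a1 and col11a2 vary between libraries within strains more than any basement membrane chain does.

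Counts of the pairwise comparisons lay near those of all genes. SH and LSB differed in 16 chains (44.4%, against 49.0% of all genes) and AB and SH in 13 (36.1% against 36.8%). SH and HSB differed in 11 chains (30.6% against 32.7%) and HSB and LSB in 8 (22.2% against 21.9%). AB differed from LSB in 7 chains (19.4% against 25.8%) and from HSB in 5 (13.9% against 18.6%). Without both LSB pools numbered 2, LSB differed from SH in 14 chains, from AB in 7 and from HSB in 6. For 7 chains (19.4%, against 28.4% of all genes) 1 strain lay wholly apart, with all 4 of its libraries above or below the other 12. SH was that strain for 6 of them, above for col5a1, COL2A1 (2 of 2), COL27A1 (1 of 2), col18a1 and col19a1 and below for col15a1b, and AB was above for col12a1. SH lay wholly apart for 16.7% of the chains and for 16.4% of all genes. The SH libraries also stood apart in myelin, as the 4 oligodendrocyte markers, each lower in SH than in every other strain in limma, summed to 25660 to 30926 CPM in SH and 34907 to 50980 CPM elsewhere. With the strain means removed, this sum correlated with col5a1 (r = 0.50), col19a1 (-0.35), COL27A1 (1 of 2) (-0.35), col18a1 (-0.59) and COL2A1 (2 of 2) (0.16), with mixed signs. That step takes out the difference of SH from the other strains and leaves sex in. These values therefore cannot speak to the SH levels. Without that step the sign of r was fixed in advance, since these chains were picked as high in SH, where the sum was low. The part of myelin transcripts in the SH values was not tested. Tested in each sex separately, 11 chains passed in the 8 female libraries (43.0% of all genes) and 12 in the 8 male libraries (36.8%), with col1a1b, col5a1, col9a3, COL27A1 (1 of 2), col4a1 and COL12A1 in both.

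Taken as sums over a class, the differences were small. FACIT chains other than type IX summed to between 90.4 and 102 CPM in SH, with 1 library of another strain (HSB female pool 2, 90.9 CPM) inside that range, and to between 73.7 and 81.9 CPM in AB. Most of this sum was 1 chain, col14a1, with a mean of 55.4 CPM over the 16 libraries. Basement membrane chains summed to 158 ± 5.10 CPM in SH, 144 ± 6.97 in HSB, 140 ± 7.85 in AB and 135 ± 14.4 in LSB (SD, n = 4 libraries each). Only HSB male pool 2, at 152 CPM, reached the SH range of 152 to 163 CPM. Sums of the fibrillar, cartilage and beaded filament and network classes overlapped among all strains, and within the fibrillar class libraries of HSB alone ran from 77.2 to 174 CPM.

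**Figure D2:**
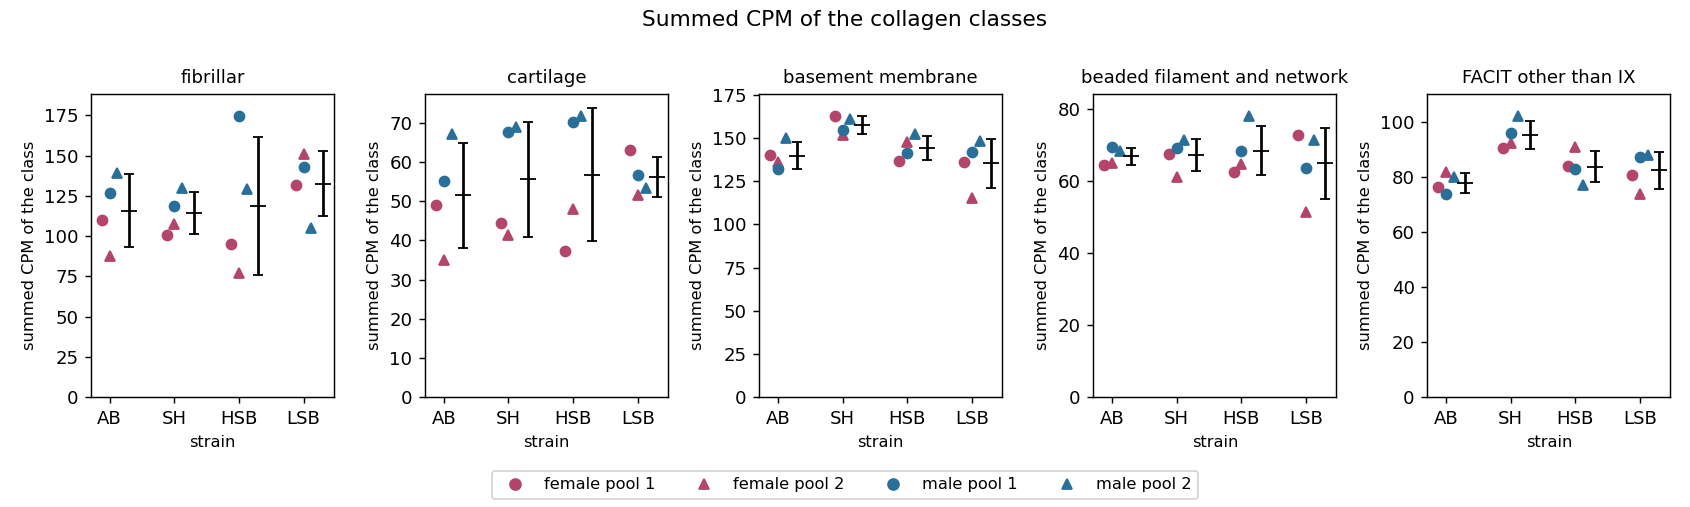
Summed CPM of 5 collagen classes in each library by strain, with the vertical axis from 0, circles for pool 1, triangles for pool 2, and the mean and SD of the 4 libraries beside them. SH lies highest for the FACIT and basement membrane classes, and the fibrillar and cartilage classes spread widely within AB, SH and HSB, with males above females.

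In the fibrillar class 3 of 5 chains differed among strains, in opposite directions. The widest and most regular difference was that of col5a1 (ENSDARG00000012593), the alpha 1 chain of type V, which helps start and limit the width of fibrils. In the order female pool 1, female pool 2, male pool 1 and male pool 2, used for every strain below, it had 32.2, 32.0, 37.7 and 36.8 CPM in SH and 21.6, 21.4, 23.1 and 27.5 CPM in HSB. In AB col5a1 had 17.2, 16.7, 19.4 and 21.7 CPM, and in LSB 16.8, 14.1, 14.4 and 13.3 CPM. Every SH library was above all others, HSB and AB overlapped in single libraries, and LSB was lowest apart from 1 library. SH exceeded LSB by 1.22 on the log2 scale (SE 0.09) with a limma adjusted p of 2.12e-07 over the 4 strains, and all 6 pairs of strains differed. The difference held without both LSB pools numbered 2 (1.13, limma adjusted p = 5.42e-07) and without any single library (1.14 to 1.31).

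Type I, the bulk collagen of skin, bone and tendon, showed another order. Only col1a1b and col1a2 stood for type I among the members. The alpha 1 chain col1a1b (ENSDARG00000035809) had 47.5, 67.5, 56.4 and 39.1 CPM in LSB and 18.6, 21.3, 25.8 and 29.9 CPM in SH. AB had 29.0, 18.9, 40.0 and 44.2 CPM, and HSB had 19.4, 11.8, 62.1 and 37.9 CPM. All LSB libraries were above all SH libraries, while AB and HSB ranged across both. Among females, both LSB libraries (47.5 and 67.5 CPM) were above those of all other strains (11.8 to 29.0 CPM). Among males, LSB (56.4 and 39.1 CPM) overlapped AB and HSB and was above SH alone. The model held 1 sex term for all strains, but the male over female difference was -0.27 in LSB and 0.47 to 1.64 elsewhere. LSB exceeded SH by 1.12 on the log2 scale (SE 0.30, limma adjusted p = 0.0219 over the 4 strains and 0.00665 for the pair). The difference was as large (1.12) without both LSB pools numbered 2. The call over the strains was lost without LSB female pool 1 or LSB female pool 2, where the limma adjusted p reached 0.0736. The partner chain col1a2 moved with col1a1b (r = 0.96 over the 16 libraries, 0.97 after the strain means were removed). Its mean was highest in LSB as well, 0.54 above SH (SE 0.20, limma adjusted p = 0.0364 for the pair). By labelled sex, the LSB mean of col1a2 was highest among females only. Among males it was 40.1 CPM, against 43.3 CPM in AB and 48.7 CPM in HSB. The strain test of col1a2 passed in the female libraries (limma adjusted p = 0.00580) but not in the male libraries (0.177). Over the 4 strains the test of col1a2 was not past the threshold (limma adjusted p = 0.130). It passed without both LSB pools numbered 2 (0.65, limma adjusted p = 0.0395), and in LSB the ratio of col1a1b to col1a2 was 1.07 to 1.38, against 0.54 to 1.06 in the other strains. LSB also had the highest sums of blood markers (2568 to 3882 CPM against 1659 to 2434 CPM elsewhere). The 9 skeletal muscle markers summed to 74.0 to 335 CPM in LSB, 40.7 to 129 CPM in HSB, 25.5 to 108 CPM in SH and 31.3 to 1507 CPM in AB. The 4 skin markers summed to 460 to 673 CPM in LSB against 348 to 548 CPM elsewhere. Of the skin markers, 3 of 4 were higher in LSB than in AB in limma, and 3 of 4 higher in LSB than in SH. The 9 markers of meninges and fibroblasts summed to 217 to 237 CPM in LSB, 213 to 225 CPM in SH, 202 to 231 CPM in HSB and 192 to 213 CPM in AB. Most of this sum was dcn, with means of 169.5 CPM in LSB and 147 CPM in SH. Of the 9, 6 were higher in SH than in LSB in limma and 2 were lower. The part of these tissues in the LSB values was not tested.

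COL5A2 (1 of 2), an alpha 2 chain of type V, went the opposite way to type I, since its 4 LSB libraries had 20.2, 15.9, 20.6 and 17.6 CPM and those of the other strains 19.8 to 26.3 CPM. AB exceeded LSB by 0.37 (SE 0.09, limma adjusted p = 0.00491), but without both LSB pools numbered 2 the difference was 0.23 and the call was lost (limma adjusted p = 0.117). The other type V alpha 2 chain, col5a2b, was between 1.92 and 5.76 CPM and did not pass the strain test (limma adjusted p = 0.110). As a pair, LSB exceeded SH in col5a2b by 0.54 (limma adjusted p = 0.0426).

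Of the FACIT chains other than type IX, 5 of 5 differed among strains, where 61.5% of all genes did. So few chains do not set the class apart from other genes. Type XII, which coats fibrils in dense connective tissue, is encoded here by 2 gene models, and their strain patterns were unlike each other. COL12A1 (ENSDARG00000019601) had 4.00, 2.90, 3.55 and 3.19 CPM in SH and 2.999, 4.68, 3.89 and 3.43 CPM in LSB. It had 1.61, 1.40, 1.33 and 1.69 CPM in AB and 1.38, 1.79, 1.202 and 1.43 CPM in HSB. The 8 libraries of SH and LSB were thus all above the 8 of AB and HSB, and neither SH and LSB nor AB and HSB differed past the threshold. LSB exceeded HSB by 1.12 (1.01 without both LSB pools numbered 2; SE 0.14, limma adjusted p = 4.15e-06 over strains, at most 1.81e-05 over the 23 alternatives).

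By contrast, col12a1 (ENSDARG00000078322) was high in AB alone, with 4.07, 4.00, 4.46 and 3.902 CPM. It lay between 1.72 and 2.93 CPM in the 12 libraries of SH, HSB and LSB, all below AB. AB exceeded SH by 0.75 (SE 0.15, limma adjusted p = 0.00118). The ratio of COL12A1 to col12a1 was 0.37 ± 0.06 in AB, 0.67 ± 0.23 in HSB, 1.55 ± 0.35 in SH and 1.52 ± 0.23 in LSB (SD, n = 4 libraries each). HSB lay above AB in 3 of its 4 libraries and below both SH and LSB in all of them. Reads were counted with HTSeq in union mode, and the treatment of reads that align to both gene models is not stated, so the split between such copies is uncertain; the same holds for the other chains that have a second copy in the table.

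Among the remaining FACIT chains, all 3 were highest in SH. Type XIX, a scarce collagen that mouse neurons are known to produce, was represented by col19a1, with 15.3, 16.2, 13.6 and 18.7 CPM in SH and at most 13.3 CPM in the other 12 libraries (SH over LSB 0.52, SE 0.11, limma adjusted p = 0.00301, and 0.59 without both LSB pools numbered 2). COL16A1 was 0.47 higher in SH than in LSB (SE 0.13, limma adjusted p = 0.0148, and 0.44 with a limma adjusted p of 0.0492 without both LSB pools numbered 2) and HSB was near SH, with 9.84 to 14.6 CPM against 11.4 to 15.6 CPM. The type XIV chain, col14a1, ranged from 57.4 to 65.5 CPM in SH and from 46.5 to 53.7 CPM in AB. Its difference of 0.28 (SE 0.07, limma adjusted p = 0.0231) was not past the threshold without AB male pool 1, AB male pool 2 or SH male pool 2, where the limma adjusted p was at most 0.0776.

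**Figure D3:**
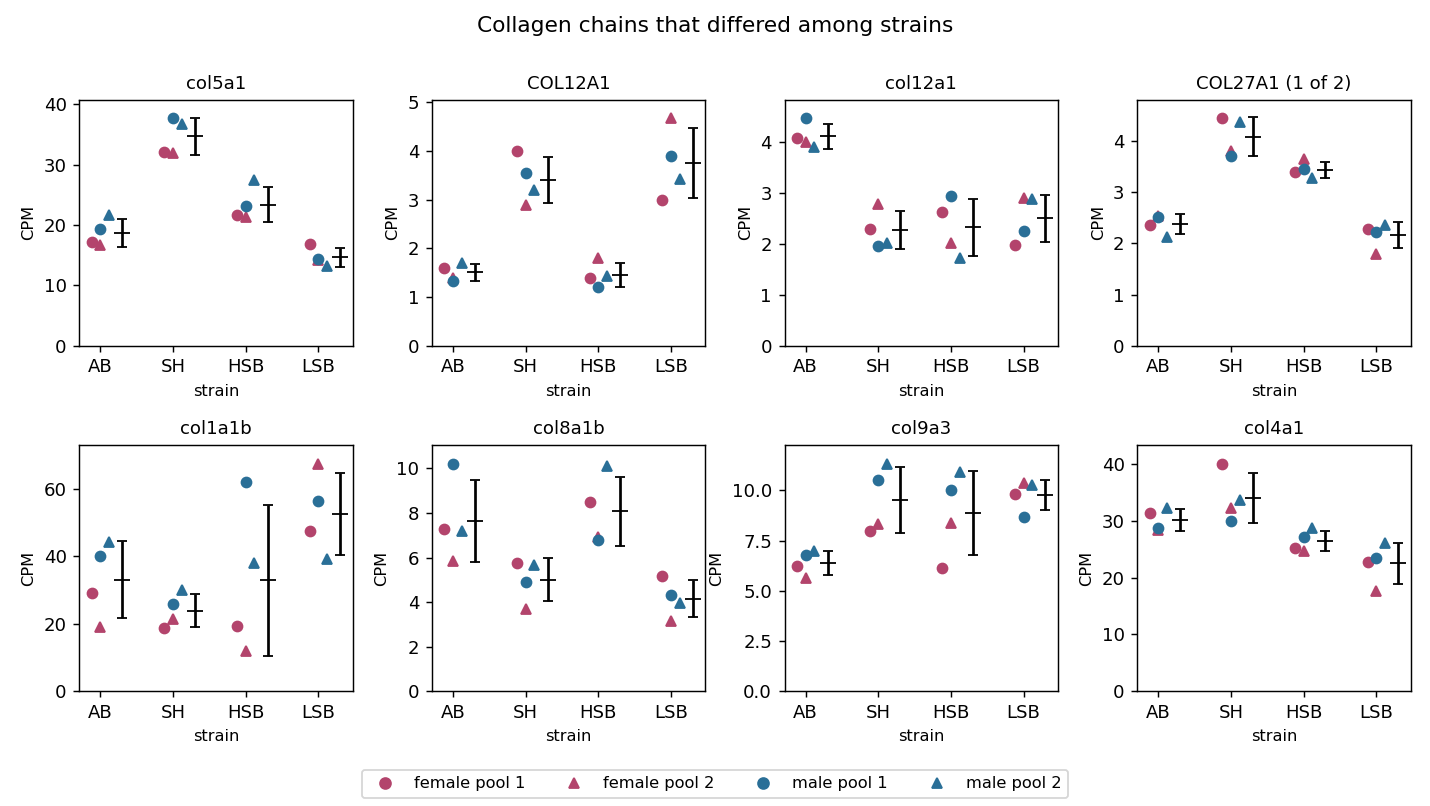
CPM of 8 chains in each library by strain, with the vertical axis from 0, circles for pool 1, triangles for pool 2, colour for the labelled sex, and the mean and SD of 4 libraries beside the points. col5a1 and COL27A1 (1 of 2) are highest in SH, COL12A1 falls into a high set (SH and LSB) and a low set (AB and HSB), and col1a1b in HSB runs from 11.8 to 62.1 CPM.

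Of the cartilage chains 4 of 11 differed among strains. COL27A1 (1 of 2), a type XXVII chain, had 4.45, 3.80, 3.71 and 4.37 CPM in SH and 3.39, 3.64, 3.45 and 3.27 CPM in HSB. AB had 2.35, 2.53, 2.51 and 2.12 CPM and LSB 2.27, 1.78, 2.21 and 2.35 CPM. SH was above HSB and HSB above the other strains without overlap, while AB and LSB overlapped. SH exceeded LSB by 0.79 (SE 0.10, limma adjusted p = 1.99e-05; 0.74 without both LSB pools numbered 2). For COL27A1 (1 of 2), SH and HSB did not pass the test of that pair. The second type XXVII chain, col27a1a, ran from 1.19 to 2.56 CPM and did not pass over strains (limma adjusted p = 0.0959). As a pair, SH exceeded HSB by 0.44 in col27a1a (limma adjusted p = 0.0385).

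The type IX chain col9a3 was lowest in AB. Its AB libraries had 6.22, 5.66, 6.77 and 6.98 CPM and those of LSB 9.81, 10.4, 8.70 and 10.3 CPM, a difference of 0.57 (SE 0.12, limma adjusted p = 0.00196), or 0.50 without both LSB pools numbered 2. HSB ranged from 6.16 to 10.9 CPM and SH from 7.97 to 11.3 CPM, so only HSB overlapped AB, in 1 library. For another type IX chain, COL9A1 (1 of 2), LSB was lowest (1.34 to 1.68 CPM) and SH highest (1.65 to 4.21 CPM), by 0.61 (SE 0.16, limma adjusted p = 0.0121), with a limma adjusted p of 0.0513 without both LSB pools numbered 2. COL2A1 (2 of 2), an alpha 1 chain of type II, had 13.5, 13.7, 16.7 and 14.8 CPM in SH and at most 13.4 CPM elsewhere (SH over AB 0.34, SE 0.07, limma adjusted p = 9.35e-04). The other 7 cartilage chains did not pass the strain test, including col10a1, whose strain means differed most of all chains (1.27 on the log2 scale, limma adjusted p = 0.179) but whose libraries of AB alone ran from 1.28 to 9.02 CPM. Of these 7, col11a1a was lower in SH than in HSB and LSB in the pairwise tests (limma adjusted p = 0.0387 and 0.0438).

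In the basement membrane class 4 of 7 chains differed. The network of type IV in vessels is built from col4a1 and col4a2, which lie side by side in the genome, and the strain means of the first lay farther apart than those of the second. In SH col4a1 had 40.1, 32.2, 30.1 and 33.8 CPM, in AB 31.4, 28.4, 28.7 and 32.3 CPM, in HSB 25.2, 24.8, 27.2 and 28.7 CPM, and in LSB 22.8, 17.6, 23.6 and 26.2 CPM. SH and LSB did not overlap, and SH exceeded LSB by 0.59 (SE 0.10, limma adjusted p = 8.64e-04; 0.54 without both LSB pools numbered 2). For col4a2 the 4 strains ran from 35.5 to 50.7 CPM with overlap. Only SH and AB differed as a pair, by 0.25 (SE 0.06, limma adjusted p = 0.00738 for the pair and 0.0238 over the 4 strains). The call over the strains was lost without AB male pool 1 or SH male pool 2 (limma adjusted p of up to 0.0585).

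The ratio of col4a1 to col4a2 was 0.77 ± 0.03 in AB, 0.73 ± 0.12 in SH, 0.60 ± 0.03 in HSB and 0.52 ± 0.04 in LSB (SD, n = 4 libraries each). No library of LSB reached the ratio of any AB, SH or HSB library, and HSB was below all of AB. Between libraries the chains were only loosely correlated (r = 0.36 over the 16 libraries, 0.60 after the strain means were removed), in contrast to the type I pair. Markers of endothelium ordered the strains in part as col4a1 did, since 11 of them summed to 303 to 318 CPM in SH and 265 to 289 CPM in LSB, but to 289 to 302 CPM in AB and 285 to 300 CPM in HSB. Their part in the col4a1 difference was not tested. The neighbouring pair col4a5 and col4a6, of the alpha 5 and alpha 6 network, did not pass the strain test (limma adjusted p = 0.216 and 0.289) and kept a ratio of 0.75 to 0.82 in the strain means.

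Types XV and XVIII, both carriers of endostatin-like ends, moved in opposite directions in SH. SH had the lowest col15a1b, with 9.79, 9.06, 9.69 and 9.62 CPM against 9.82 to 12.4 CPM in all other libraries, 0.29 below AB (SE 0.06, limma adjusted p = 0.00506). It had the highest col18a1, narrowly above the rest with 49.6 to 51.0 CPM against 37.7 to 49.6 CPM elsewhere, 0.24 above AB (SE 0.07, limma adjusted p = 0.0214). The col18a1 call was lost without SH female pool 1 or SH female pool 2, with a limma adjusted p of up to 0.0589, and also when the libraries were rescaled by their median ratio. The type VII chain col7a1l, of anchoring fibrils, ran from 1.67 to 3.68 CPM and did not pass (limma adjusted p = 0.403).

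Chains of beaded filaments and networks gave 4 of 7 calls, divided between types VI and VIII. The alpha 1 chain of type VIII, col8a1b, had 7.28, 5.85, 10.2 and 7.20 CPM in AB and 8.51, 6.90, 6.78 and 10.1 CPM in HSB. It had 5.76, 3.68, 4.92 and 5.67 CPM in SH and 5.18, 3.16, 4.33 and 3.95 CPM in LSB. AB and HSB were above SH and LSB without overlap, the reverse of COL12A1, and HSB exceeded LSB by 0.88 (SE 0.17, limma adjusted p = 7.79e-04; 0.69 without both LSB pools numbered 2). Its partner col8a2 was lowest in HSB, at 16.8 to 18.8 CPM, and 0.22 higher in SH (SE 0.05, limma adjusted p = 0.00772), so the type VIII chains did not share a strain order.

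In type VI, col6a1 was highest in LSB (13.02, 8.54, 12.2 and 13.1 CPM) and lowest in SH (8.11, 6.25, 8.91 and 8.40 CPM), by 0.53 (SE 0.14, limma adjusted p = 0.0190, up to 0.0608 without SH female pool 2), or 0.65 without both LSB pools numbered 2. For col6a3 (ENSDARG00000077139), an alpha 3 chain, SH was highest instead, with 15.1 to 17.1 CPM against 11.7 to 12.9 CPM in AB, a difference of 0.40 (SE 0.09, limma adjusted p = 0.00501). A second gene model of the same symbol (ENSDARG00000095915) followed it from library to library (r = 0.83 over the 16 libraries) without passing the strain test (limma adjusted p = 0.155). Neither col6a2 nor col6a6 passed, and the transmembrane chain COL23A1 (2 of 2), at 1.80 to 3.10 CPM, did not either (limma adjusted p = 0.440).

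The second question was whether the chains differed between the sexes in AB, SH and HSB. Most fibrillar and most cartilage chains were higher in males, and no basement membrane chain passed the test. In all, 10 of 36 chains (27.8%) had higher expression in males, against 0.555% of all genes, and none was lower, against 0.157% of all genes (limma, strain and sex as terms, 12 libraries, Benjamini-Hochberg adjusted p under 0.05 over all genes). By class these were 3 of 5 fibrillar chains, 6 of 11 cartilage chains and 1 of 7 chains of beaded filaments and networks. None of the 7 basement membrane chains, 5 FACIT chains and 1 transmembrane chain passed with limma, and none of these 13 had an unadjusted p under 0.05. An unadjusted p under 0.05 was found for 14 of the 36 chains (38.9%, all higher in males) and for 12.1% of all genes. Males were higher for 27 of the 36 chains, against 37.9% of all genes, and the median chain was 0.09 higher in males on the log2 scale while the median gene was at -0.02. For 10 chains (27.8%) both male libraries lay above both female libraries in each of the 3 strains, against 1.40% of all genes; these were 9 of the 10 called chains and col11a1b.

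**Figure D4:**
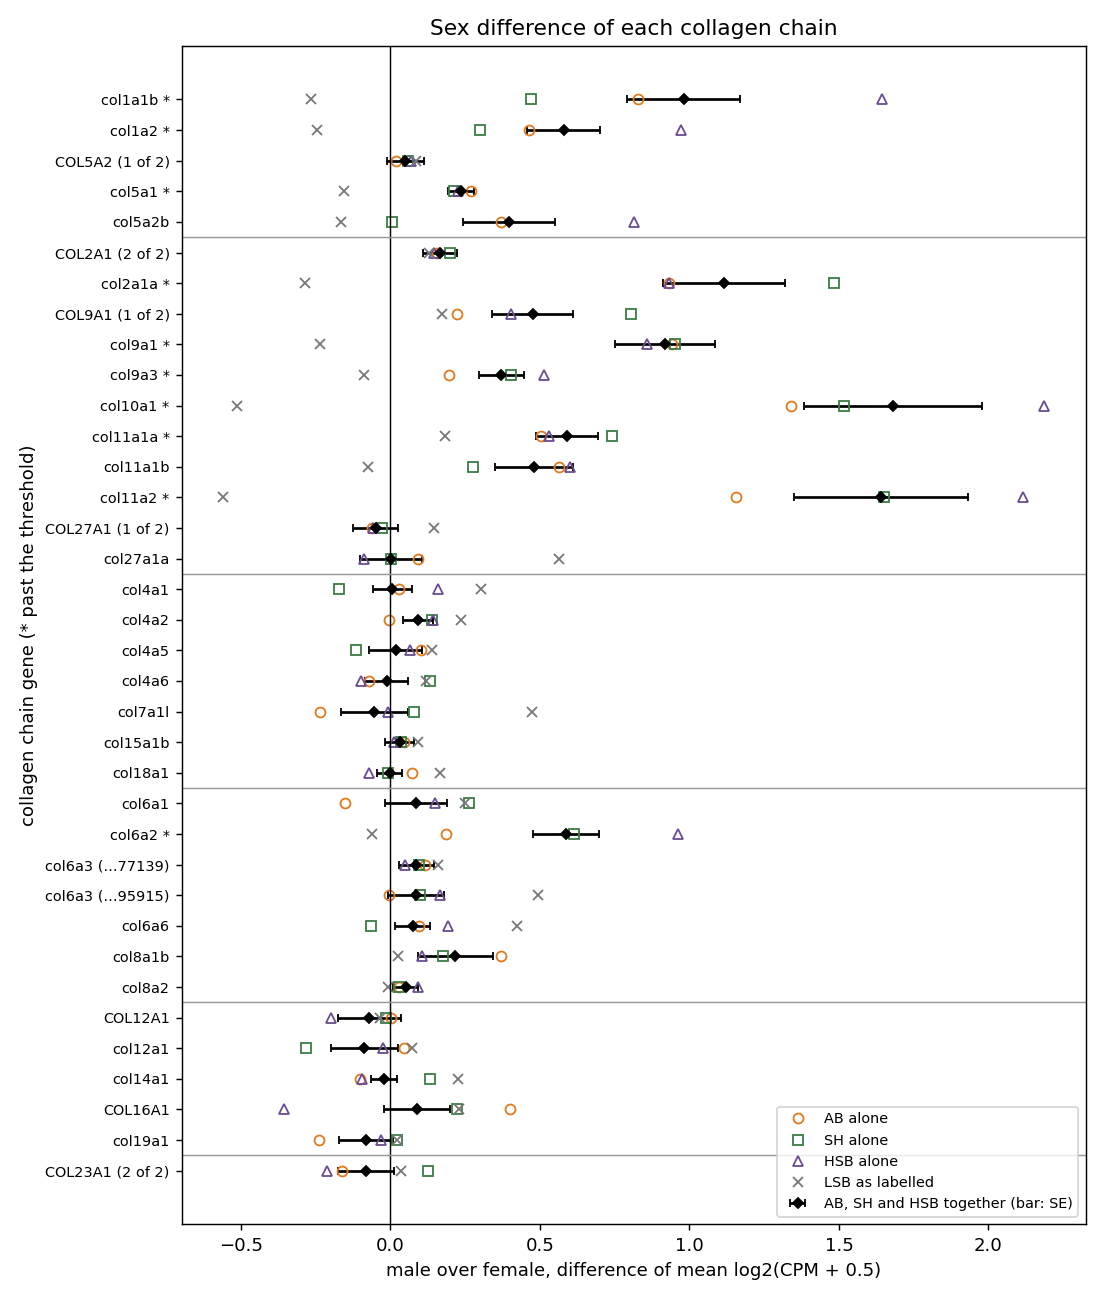
Male over female difference of each chain on the log2 scale: black diamonds with SE bars are the estimates over the 12 libraries of AB, SH and HSB, open symbols each strain alone, crosses LSB as labelled, and asterisks chains past the threshold. The 10 called chains lie to the right of 0 in all 3 strains, while LSB falls below 0 for 9 of them, and basement membrane and FACIT chains cluster around 0.

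The largest differences were in chains of cartilage and bone. Expression of col10a1 (ENSDARG00000054753), the type X chain, was 4.10, 1.28, 5.02 and 9.02 CPM in AB, 1.62, 0.906, 4.64 and 4.24 CPM in SH and 1.28, 1.09, 13.96 and 3.55 CPM in HSB, in the order of females then males. Males were above females within each strain, although AB female pool 1 exceeded HSB male pool 2. The difference was 1.68 on the log2 scale (SE 0.30, limma adjusted p = 0.0193), and 1.34, 1.52 and 2.19 in AB, SH and HSB.

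The type XI chain col11a2 had 2.78, 0.264, 2.86 and 3.21 CPM in AB, 0.588, 0.483, 2.49 and 3.02 CPM in SH and 0.277, 0.978, 4.93 and 3.47 CPM in HSB. AB female pool 1 was nearly at the male level, and the other 5 female libraries were all under 1 CPM, where the added 0.5 holds down the fold change. Its difference was 1.64 (SE 0.29, limma adjusted p = 0.0193). The other type XI chain past the threshold, col11a1a, had a lowest, median and highest value of 2.93, 4.19 and 5.45 CPM in the 6 female libraries and 5.39, 6.45 and 7.88 CPM in the 6 male libraries, 0.59 higher in males (SE 0.10, limma adjusted p = 0.0186). The third, col11a1b, was 0.48 higher (SE 0.13) but not past the threshold (limma adjusted p = 0.142).

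Of the type II chains, col2a1a had 3.71, 5.36 and 9.95 CPM (lowest, median and highest) in females and 10.2, 13.2 and 17.9 CPM in males, so the sexes did not overlap even across strains. The difference was 1.12 (SE 0.20, limma adjusted p = 0.0230), whereas its paralog COL2A1 (2 of 2) differed by 0.17 and did not pass (limma adjusted p = 0.240). Type IX gave 2 calls. One was col9a1, with 0.553, 0.912 and 1.47 CPM in females and 1.63, 2.23 and 2.73 CPM in males, 0.92 higher (SE 0.17, limma adjusted p = 0.0230), again with no overlap. The other was col9a3, higher by 0.37 (SE 0.08, limma adjusted p = 0.0430).

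Both type I chains among the members (col1a1b and col1a2) were higher in males. For col1a1b the lowest, median and highest values were 11.8, 19.2 and 29.0 CPM in females and 25.8, 39.0 and 62.1 CPM in males, a difference of 0.98 (SE 0.19, limma adjusted p = 0.0312). For col1a2 they were 21.96, 26.5 and 36.9 CPM and 30.2, 40.6 and 58.6 CPM, a difference of 0.58 (SE 0.12, limma adjusted p = 0.0470). HSB showed the widest gap in both, 1.64 and 0.97, and SH the narrowest, 0.47 and 0.30. The gap of col5a1 was small but even, 0.24 (SE 0.04, limma adjusted p = 0.0278), with 0.27 in AB, 0.21 in SH and 0.23 in HSB. In type VI, col6a2 was 0.59 higher (SE 0.11, limma adjusted p = 0.0283), from 0.19 in AB to 0.96 in HSB, while col6a1 differed by 0.09 (SE 0.10).

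**Figure D5:**
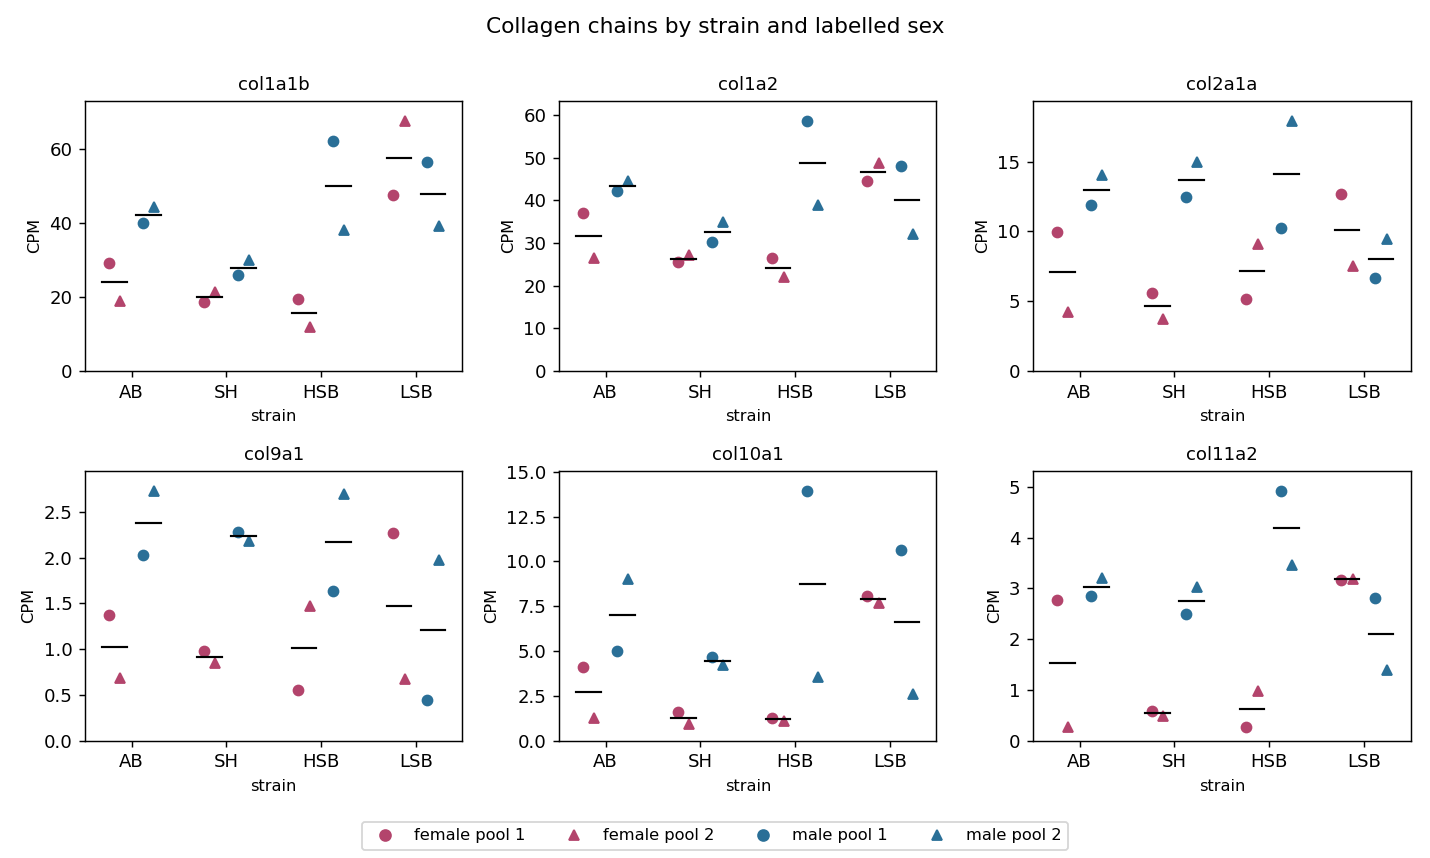
CPM of 6 chains by strain and labelled sex, with the vertical axis from 0, circles for pool 1, triangles for pool 2, and lines for the mean of 2 pools. In AB, SH and HSB each male point is above each female point of its strain, and in LSB the labelled sexes are mixed.

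LSB did not share this pattern. Of the 10 chains, 3 were higher in LSB male pool 1 than in LSB female pool 1, and 4 were higher in the library labelled LSB male pool 2 than in that labelled LSB female pool 2. For col10a1 the LSB females had 8.10 and 7.69 CPM and the LSB males 10.7 and 2.60 CPM, and 3 of these 4 values were above those of all females of the other strains. With all 16 libraries no chain passed the sex test in limma, although 14 had an unadjusted p under 0.05 and 31 of 36 were higher in males. In that fit the median chain was 0.13 higher in males and the median gene was at -0.002, against -0.02 in the 12 libraries. The genes called in all fell as well with all 16 libraries, from 109 to 6, and 1555 of 15304 had an unadjusted p under 0.05. With LSB pool 1 alone added 2 chains passed (col10a1, limma adjusted p = 0.0286, and col1a1b, limma adjusted p = 0.0425). The genes called in all fell only from 109 to 80 in that fit, so the loss there was greater among the chains. Among AB, SH and HSB no chain had a sex by strain interaction past the threshold (limma, 4 chains or 11.1% with an unadjusted p under 0.05, against 5 genes past the threshold and 5.18% of all genes with an unadjusted p under 0.05).

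The 10 calls also rested on most of the libraries. Without 1 library at a time, between 0 and 10 chains passed in limma: 0 without SH male pool 2, 1 without SH female pool 2, 2 without HSB female pool 1 or HSB male pool 2, 3 without AB female pool 2, 5 without SH female pool 1 or SH male pool 1, 6 without HSB female pool 2 and at least 7 without any of the other 4. Calls over all genes fell as well, from 109 to 36 without SH male pool 2 and to 46 without SH female pool 2. They fell less than those of the chains without HSB female pool 1 (64 genes), HSB male pool 2 (68) or AB female pool 2 (82). Between 13 and 16 of the 36 chains had an unadjusted p under 0.05 in these 12 fits, against 1579 to 1949 of 15304 genes. Between 24 and 29 of 36 chains were higher in males.

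Markers of some other tissues were also higher in males. Among all genes 37.9% were higher in males, 0.555% passed as higher in males and 12.1% had an unadjusted p under 0.05 in limma. Of 12 cartilage and bone markers in the table, all 12 were higher in males (5 with an unadjusted p under 0.05 in limma). Of these, spp1 (osteopontin, of bone matrix) passed the test at 1.16 (SE 0.23, limma adjusted p = 0.0389). The sum of the 12 was 152 to 189 CPM in the 6 female and 162 to 188 CPM in the 6 male libraries. Most of it came from acanb, sox9a and hapln1a (means of 56.0, 55.7 and 17.6 CPM over the 16 libraries). These differed by only 0.03, 0.0003 and 0.02 between the sexes, so the sum says little of the scarcer markers. No row in the table was found for sp7 and bglap, which define bone-forming cells. Of 6 genes listed for inner ear and otolith all 6 were higher in males and 3 passed, namely otomp (0.86, SE 0.14, limma adjusted p = 0.0134), tectb (0.96, SE 0.16, limma adjusted p = 0.0134) and sparc (0.22, SE 0.04, limma adjusted p = 0.0155). Their sums were 701 to 833 CPM in females and 699 to 979 CPM in males, mostly stm and sparc (means of 534 and 259 CPM over the 16 libraries). Of these 2, stm did not pass, and whether sparc came from the inner ear was not tested. In mammals, types II, IX and XI are also found in the tectorial membrane of the inner ear, and oc90 and otop1 of the otolith had no row. Skeletal muscle markers were higher in males for 8 of 9 and none passed in limma (6 with an unadjusted p under 0.05), with sums of 25.5 to 81.3 CPM in females and 29.1 to 1507 CPM in males. All 4 oligodendrocyte markers were higher in males with an unadjusted p under 0.05 in limma. Of the 4, mpz (0.17, SE 0.04) and plp1b (0.22, SE 0.04) passed (limma adjusted p = 0.0430 and 0.0255). All 4 blood markers were higher in males as well and none passed in limma (1 with an unadjusted p under 0.05), with sums of 1659 to 2244 CPM in females and 1733 to 2434 CPM in males. Of 3 radial glia markers 1 passed, the brain aromatase gene cyp19a1b, lower in males (-0.68, SE 0.07, limma adjusted p = 1.58e-04). The others, s100b and gfap, were 0.09 and 0.05 higher in males and did not pass. Sums of the 3 were 5087 to 7874 CPM in females and 3886 to 5336 CPM in males. Most of these sums was cyp19a1b, with a mean of 3023 CPM over the 16 libraries against 1828 CPM for s100b and 372 CPM for gfap.

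Markers of meninges and fibroblasts were divided between the sexes. Of 9 of them 3 were higher in males (lum by 0.43, postnb and fmoda by 0.22), and the rest were lower. None passed in limma (4 with an unadjusted p under 0.05, 2 of them higher in males), with sums of 192 to 231 CPM in females and 202 to 216 CPM in males. Most of these sums was dcn, with a mean of 155 CPM over the 16 libraries and a sex difference of -0.06, so they say little of the scarcer markers. Of 11 endothelial markers 5 were higher in males and none passed in limma (1 with an unadjusted p under 0.05), with sums of 291 to 311 and 285 to 318 CPM. Without AB male pool 2, the library with the most muscle transcripts, 7 chains remained past the threshold and col10a1 differed by 1.63. The part of cartilage, bone, inner ear, muscle, blood, radial glia, myelin, fibroblast and endothelial transcripts in the sex differences of the chains was not tested.

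Genes that process, cross-link, degrade or bind collagen were compared with the chains. Of 45 such genes, 28 (62.2%) differed among strains, against the 61.5% of all genes given above. Among them were 11 of 19 genes of chain modification and folding, 5 of 10 of propeptide cleavage and cross-linking, 6 of 8 of breakdown and 6 of 8 receptors. In the SH and LSB comparison 11 of the 45 (24.4%) were higher in SH and 7 (15.6%) lower, against 32.5% and 16.5% of all genes. Sums of the breakdown genes (metalloproteinases, 2 of their inhibitors and cathepsin K) were highest in AB (564 to 593 CPM) and lowest in SH (485 to 512 CPM), and sums of the receptors were highest in SH (133 to 142 CPM, against 96.7 to 126 CPM elsewhere). In neither case did SH overlap AB. The largest part of the breakdown sum was timp2a, an inhibitor of metalloproteinases, with a mean of 317 CPM in AB and 260 CPM in SH. Means of timp2b, the other inhibitor, and of mmp2, mmp9, mmp13b and mmp14b were also higher in AB. Those of cathepsin K and mmp14a were lower in AB. The order of this sum is therefore not that of the breakdown enzymes alone. Between the sexes none of the 45 passed in limma, 8 (17.8%, against 12.1% of all genes) had an unadjusted p under 0.05 (4 higher in males), and 19 of 45 were higher in males.

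Chains of a class rose and fell together between libraries to unequal degrees. After the strain means were removed, the median pairwise correlation over the 16 libraries, given as a description, was 0.60 among the 11 cartilage chains, 0.49 among fibrillar, 0.48 among basement membrane, 0.42 among beaded filament and network and -0.11 among FACIT chains. All of these values share the libraries, with their sex and tissue content.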

How the data were processed

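Pooled total RNA of whole brains was made into 16 cDNA libraries with the TruSeq RNA kit of Illumina, which were sequenced as single-end reads. Per the labels and the study's methods, the authors called bases with CASAVA 1.7, aligned reads to Zv9 with GSNAP, counted them per protein coding gene with HTSeq (union mode) and fitted edgeR with sex and strain. The authors deposited CPM, scaled to 1000000 per library over 15304 genes. Depth was read from the value of a single read (0.0280 to 0.0544 CPM). The 2 pools of a strain and sex differed by more than sampling noise (chi-square per degree of freedom 4.99 to 14.4).

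Strain (16 libraries, sex as a further term), sex (12 libraries of AB, SH and HSB, strain as a further term) and their interaction were fitted to log2(CPM + 0.5) of all genes with limma 3.58.1 (lmFit, eBayes with trend; R 4.3.3) and Benjamini-Hochberg adjustment, at a threshold of 0.05. Fold changes are on that scale, which understates changes of low genes. Class sums, ratios and correlations have no test. Scripts were tested on simulated data. Other steps used Python 3.11.15, pandas 2.3.3 and matplotlib 3.10.9. Values are whole multiples of a read, which gave the depths, but a count test was not run, since the filtered table holds fewer low values than were required here before testing such reads.

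Members, classes, marker lists and collagen handling genes were chosen with earlier results of these data known. Values were given, in each class, for the 4 called chains with the widest strain difference and the one with the highest mean CPM, for the 8 chains with the smallest sex p, and for types I and IV. Other chains that passed the sex test, and those named with 1 value, were added after their values were seen. CPM are not per transcript length, so the text ranks no chains by level. Alternatives were the added constant (0.1 and 1), rescaling by median ratio, a mean of at least 1 CPM, replicate blocks, left-out strains and left-out libraries. Tests within each sex and sex values within each strain were added after seeing the data.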

Additional observations from a re-analysis of the deposited data

Results flagged for a closer look

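In 140 sets of 4 libraries of a strain, 2 held a library far from the others, where chance alone flags about 1 in 20. In SH, female pool 2 had 15.1 CPM of col6a3 (ENSDARG00000077139) and the other 3 libraries 16.8 to 17.1 CPM, all above the AB libraries. In AB, female pool 2 had 0.264 CPM of col11a2 and the other 3 libraries, 1 of them also of females, 2.78 to 3.21 CPM.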

How the results depend on the processing

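The number of chains that differed among strains was 20 with an added constant of 0.1 or 1, with rescaling, with the filter on mean CPM and without both LSB pools numbered 2 (18 of them shared with the 20 of all libraries), and 17 without a sex term, where col1a1b, COL9A1 (1 of 2) and col4a2 were lost. In the tests added after seeing the data it was 11 in the 8 female and 12 in the 8 male libraries, where fewer libraries enter. Without 1 library it was 18 to 23. For pairs of strains, this range was 12 to 14 (AB and SH), 4 to 5 (AB and HSB), 7 to 9 (AB and LSB), 6 to 11 (SH and HSB), 13 to 19 (SH and LSB) and 5 to 10 (HSB and LSB), and the low ends came without SH female pool 1 (6), and without HSB female pool 1, HSB female pool 2 or LSB female pool 2 (5 each).

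The number of chains higher in males was 10 with either added constant, rescaling or the filter, 0 with all 16 libraries, 2 with LSB pool 1 added, 5 without AB and 0 without SH or without HSB, where 12 to 14 chains had an unadjusted p under 0.05. Without 1 library it was 0 to 10. Genes called in all were 6 with all 16 libraries, 80 with LSB pool 1 added, 48 without AB, 21 without SH and 27 without HSB. The cause of these losses was not tested. The interaction count was 0 under every alternative run. Pool numbers do not pair the libraries, which hold different fish: over the chains, the difference between pools correlated between females and males by 0.07 in AB, -0.09 in SH, 0.31 in HSB and -0.21 in LSB. With the number as a replicate block, 20 chains were called by strain and 10 by sex. No alternative turned the direction of a single-chain difference recomputed under it. Rescaling moved the median gene by at most 0.07 on the log2 scale. Class sums between the highest and lowest strain kept their order or moved by less than the spread of libraries.

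With 2 pools per strain and sex, a missed threshold does not show that strains or sexes were alike.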

Other observations

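Collagen IV alpha 3 binding proteins, matched by symbol but not collagen chains, had 15.04 to 25.2 CPM (col4a3bpa) and 35.4 to 47.7 CPM (COL4A3BP (1 of 2)) over the 16 libraries.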
